A study of Homo sapiens with 6 samples.

Results

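The expression of 10 genes that mark the epithelial or the mesenchymal state of a cell was examined in DU145 cells with and without taraxasterol (TAX). The genes were chosen by name and were CDH1, EPCAM and ESRP1 on the epithelial side, CDH2, VIM and FN1 on the mesenchymal side, and the transcription factors ZEB1, ZEB2, SNAI1 and SNAI2. All 10 were found among the 23062 identifiers of the deposited tables. DU145 cells are an established line of human prostate carcinoma that came from a brain metastasis, and their genotype is given as WT. Libraries were made from control cells in MEM medium (3 libraries) and from cells given 56 µM TAX, a plant triterpene, for 48 h (3 libraries). TAX was dissolved in DMSO. No source used here says if the control medium held DMSO, so solvent and TAX cannot be told apart. The labels do not say whether the 3 libraries of a group came from separate cultures, so the p values measure only the spread between these libraries.

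Epithelial cells are held together by E-cadherin, and in the epithelial-mesenchymal transition (EMT) they lose these contacts, take up vimentin filaments and fibronectin matrix and become motile. The transition is driven by transcription factors of the ZEB and SNAI families, which bind E-box motifs and repress CDH1 and other epithelial genes. ZEB1 and ZEB2 are in turn repressed by the microRNAs of the miR-200 family, and ESRP1 keeps the epithelial splice forms of many mRNAs. Carcinoma cells can hold epithelial and mesenchymal genes at the same time.

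The unit of the deposited values is not named, and they were read as FPKM. FPKM values are fragments scaled by gene length and by the mapped fragments of the library. They allow levels to be compared between genes, while the number of reads behind a value is unknown. The summed FPKM was between 322483 and 363724 per library, lowest in control replicate 3, and 3997 to 4798 identifiers were listed at 0. The epithelial keratin genes KRT8, KRT18, KRT19 and KRT7 lay between 98.6 and 191 FPKM in all libraries, while KRT5 was listed at 0. KLK3, KLK2 and TMPRSS2, genes of luminal prostate cells, were at or below 0.0191 FPKM in every library. Of the 5 fibroblast markers, DCN and LUM were listed at 0, COL3A1 and PDGFRA were at or below 0.0755 FPKM, and COL1A1 lay between 1.42 and 2.08 FPKM. Their sum was 1.93 to 2.14 FPKM in control and 1.48 to 1.57 FPKM in TAX-treated cells. The 4 endothelial markers summed to at most 0.0884 FPKM and the 4 leukocyte markers to at most 1.07 FPKM.

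ZEB1 and ZEB2 are the members whose mRNAs carry the best known control element of this gene set, the binding sites of the miR-200 family. Their sequences are shown here because they name the link between both ZEB genes and the epithelial state. MicroRNAs were not measured in these libraries. The mature sequences of the family are given from RefSeq (GRCh38.p14), 5′ to 3′, with the seed (bases 2 to 8) in capitals.
miR-200b-3p: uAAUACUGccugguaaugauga
miR-200c-3p: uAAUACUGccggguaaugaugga
miR-429: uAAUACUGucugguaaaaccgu
miR-200a-3p: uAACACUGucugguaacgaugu
miR-141-3p: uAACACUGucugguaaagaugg
The first 3 microRNAs share one seed, and miR-200a-3p and miR-141-3p share another that differs from it by a single base. The matching target letters are CAGTATT for the first seed and CAGTGTT for the second.

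These letters were counted in the 3′ UTR of each member, taken from the GENCODE 29 transcript with the longest 3′ UTR (GRCh38). ZEB1 held 6 matches to CAGTATT and 3 to CAGTGTT in 2549 bases. ZEB2 held 5 and 4 in 5370 bases. Of the 19132 genes with an annotated 3′ UTR, 28.3% held at least 1 match to either seed. ZEB1 and ZEB2 were among the 6 genes, or 0.0314%, that held 9 or more. These shares take no account of the length of the 3′ UTR. ESRP1 and FN1 each held 2 matches and SNAI2 held 1, while CDH1, EPCAM, CDH2, VIM and SNAI1 held 0. A match is a description of the letters and not a measured site. Some matches are shown with their surrounding bases and the seed match in capitals.
ZEB1, chr10:31527618-31527646, plus strand: attgttttatcttatCAGTATTatcactc
ZEB1, chr10:31528492-31528520, plus strand: ctgatttttacctatCAGTATTattttat
ZEB1, chr10:31528031-31528059, plus strand: caaaatcatcagaatCAGTGTTtgtgatt
ZEB2, chr2:144389046-144389074, minus strand: cgcactaccatacatCAGTATTtttatta
ZEB2, chr2:144388983-144389011, minus strand: cgcactacaatgcatCAGTATTatgattc
ZEB2, chr2:144388704-144388732, minus strand: agtgccatccttgtaCAGTGTTaagaggg

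**Figure D1:**
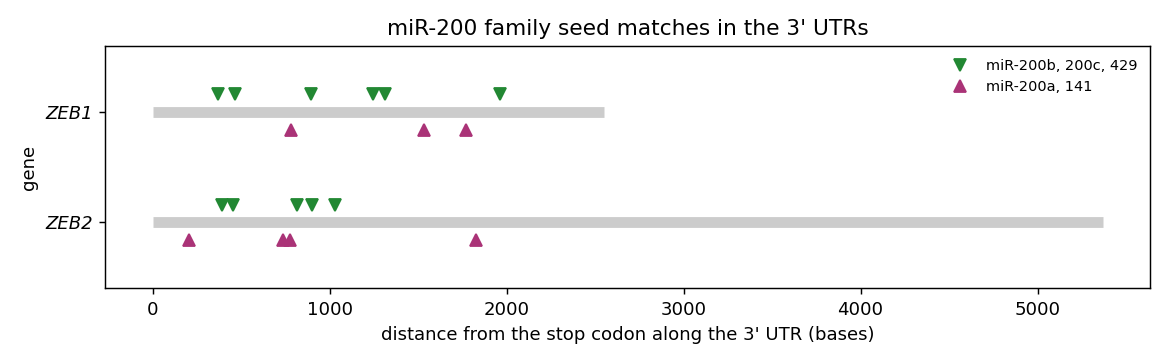
Seed matches of the miR-200 family along the 3′ UTRs of ZEB1 (2549 bases) and ZEB2 (5370 bases), as distance from the stop codon in bases. Triangles pointing down mark the seed shared by miR-200b, miR-200c and miR-429 (6 in ZEB1, 5 in ZEB2), triangles pointing up the seed shared by miR-200a and miR-141 (3 in ZEB1, 4 in ZEB2), and all ZEB2 matches lie at or before base 1825.

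The levels of the 10 genes spanned from 0 to 538 FPKM. VIM was by far the most abundant member, above EPCAM and CDH1 in every library. The ranges of EPCAM and CDH1 over the 6 libraries overlapped, and both lay above all other members except VIM. ZEB1 and FN1 followed with overlapping ranges, then ESRP1, SNAI2 and SNAI1, whose ranges overlapped from one to the next, then ZEB2, and CDH2 was last. DU145 cells thus had E-cadherin and EPCAM mRNA together with much vimentin mRNA. CDH2 was listed at 0 or near it, and an exact 0 in tables without counts can be a failed estimate. In bulk RNA, fewer cells that express a gene and less of its RNA per cell cannot be told apart, so these values do not say whether single cells held both kinds of mRNA.

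**Figure D2:**
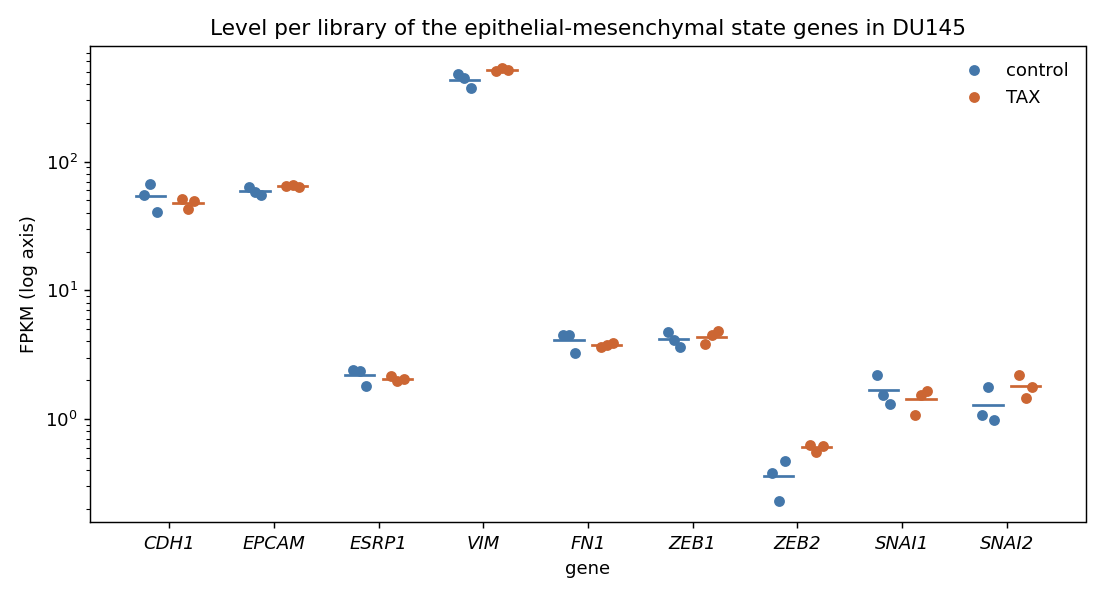
FPKM of 9 member genes on a log axis, with 1 point per library and a bar at the mean of the 3 control or 3 TAX libraries. VIM lies between 373 and 538 FPKM, CDH1 and EPCAM between 40.7 and 66.8 FPKM, and ZEB2 below 0.631 FPKM; CDH2, at 0.007475 FPKM or less, is not drawn.

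TAX and control libraries were compared by limma, on log2(FPKM + 1), for the 12359 genes that reached 1 FPKM in 3 or more libraries. The added 1 understates the changes of genes with low values. Of the 10 members, 8 passed this filter, while ZEB2 and CDH2 did not. The count of members with an adjusted p below 0.05 (limma, Benjamini-Hochberg) was 0 of 8, beside 0.477% of all tested genes (0.316% higher and 0.162% lower). Quantile normalization turned the split of these calls over all genes from 39 higher and 20 lower to 47 and 48. By an unadjusted p under 0.05, 2 of the 8 passed, VIM and SNAI2, both higher in TAX. Of all tested genes 10.1% passed so, 7.73% higher and 2.41% lower. Of the 8 genes 4 had a positive and 4 a negative log2 fold change, with a median of -0.0034 beside 0.054 over all tested genes. The 3 TAX values lay above the 3 control values without overlap in EPCAM and VIM among the tested members and in the untested ZEB2, where 14.6% of all tested genes did so. For 0 members did they lie below, where 3.34% of all tested genes did. Of the 9 members with values above 0 in every library, 7 were lowest in control replicate 3, as were 58.0% of all tested genes.

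**Figure D3:**
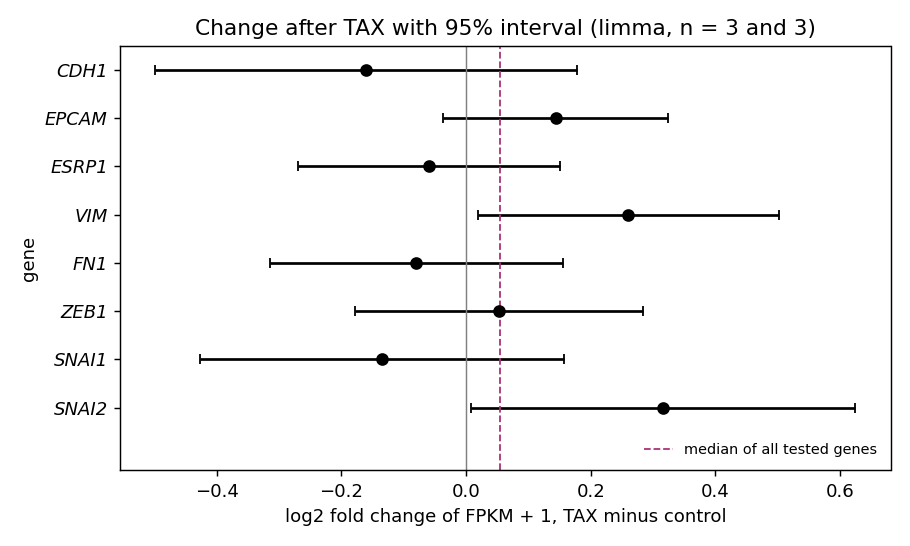
Log2 fold change of FPKM + 1, TAX minus control, for the 8 tested members, with points at the limma estimate and bars for the 95% interval (3 libraries a group). The intervals of VIM (0.019 to 0.50) and SNAI2 (0.0082 to 0.62) lie above 0, those of the other 6 genes cover 0, and the dashed line is the median of all tested genes at 0.054.

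CDH1 encodes E-cadherin, the adhesion receptor of epithelial junctions. The gene lies on chromosome 16 from 68737225 to 68835548 on the plus strand (GRCh38, GENCODE 29). In order of replicate number, as for all genes here, the controls had 54.9, 66.8 and 40.7 FPKM and the TAX libraries 50.8, 42.8 and 49.0 FPKM. The TAX values all lay inside the range of the controls, which held both the highest and the lowest library. Its log2 fold change was -0.16 (standard error 0.15, 95% interval -0.50 to 0.18, adjusted p = 0.733 from limma), so that the interval ran from a 0.708-fold to a 1.13-fold level. Single control libraries set this value. It was 0.0028 without control replicate 2 and -0.35 without control replicate 3, with adjusted p of 0.995 and 0.295 (limma).

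EPCAM, the epithelial cell adhesion molecule, is a surface glycoprotein of simple epithelia and carcinomas. It lies on chromosome 2 from 47345158 to 47387601 on the plus strand. Its FPKM was 63.0, 57.8 and 55.0 in the controls and 64.5, 66.2 and 63.5 with TAX. The groups did not overlap, but the lowest TAX library and the highest control library were almost level. Its log2 fold change was 0.14 (standard error 0.082, 95% interval -0.037 to 0.32, adjusted p = 0.570 from limma). EPCAM was the steadiest member in the controls, with a coefficient of variation of 6.93%, against 24.1% for CDH1.

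ESRP1, the epithelial splicing regulator, lies on chromosome 8 from 94641074 to 94707466 on the plus strand. Its FPKM was 2.41, 2.38 and 1.81 in the controls and 2.16, 1.96 and 2.05 with TAX. As for CDH1, all TAX values lay within the range of the controls. Its log2 fold change was -0.060 (standard error 0.095, 95% interval -0.27 to 0.15, adjusted p = 0.842 from limma). It was -0.010 without control replicate 1, -0.018 without control replicate 2, -0.037 without TAX replicate 2 and -0.15 without control replicate 3. The level of CDH1 was 21.8 to 28.1 times that of ESRP1 in the 6 libraries. ESRP2, the paralog with the same role in splicing, was the more abundant of both, with 7.04 ± 0.989 FPKM in the controls and 7.53 ± 0.275 FPKM under TAX (SD, n = 3 each).

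VIM encodes vimentin, the intermediate filament protein of mesenchymal cells. It lies on chromosome 10 from 17228259 to 17237593 on the plus strand. Its FPKM was 479, 449 and 373 in the controls and 504, 538 and 511 with TAX, so that the groups did not overlap. At least 99.6% of all identifiers were below it in every library. Its log2 fold change was 0.26 (standard error 0.11, 95% interval 0.019 to 0.50, adjusted p = 0.459 from limma, unadjusted p = 0.0372), a 1.20-fold level. An exact permutation test gave a two-sided p of 0.1, the smallest that 3 against 3 libraries allow. Without control replicate 3, the lowest library, the log2 fold change was 0.16 (adjusted p = 0.480 from limma). After each library was rescaled to the same summed FPKM, VIM was 403 to 459 in the controls and 499 to 523 with TAX and still did not overlap. Of the keratin genes, KRT18 and KRT19 also lay higher with TAX without overlap. KRT18 had 108 to 137 FPKM in the controls and 147 to 172 FPKM with TAX. For KRT19 the values were 98.6 to 126 and 138 to 151 FPKM. The groups overlapped for KRT8 (126 to 170 and 151 to 173 FPKM) and KRT7 (139 to 191 and 164 to 174 FPKM). KRT5 was listed at 0. The 5 epithelial markers summed to 471 to 615 FPKM in the controls and 611 to 661 FPKM with TAX, with overlap. The part of these markers in the result was not tested.

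FN1 encodes fibronectin, a matrix glycoprotein that integrins bind, and lies on chromosome 2 from 215360440 to 215436172 on the minus strand. Its FPKM was 4.46, 4.50 and 3.26 in the controls and 3.62, 3.78 and 3.92 with TAX, again inside the range of the controls. With limma the log2 fold change was -0.080 (standard error 0.11, 95% interval -0.31 to 0.16, adjusted p = 0.811). It was -0.022 without control replicate 1, -0.016 without control replicate 2 and -0.20 without control replicate 3. Vimentin and fibronectin are both textbook mesenchymal genes, but VIM was 108, 99.8 and 114 times as abundant as FN1 in the controls and 139, 142 and 130 times with TAX, without overlap of the groups.

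CDH2 encodes N-cadherin, the cadherin of neural and mesenchymal cells, and lies on chromosome 18 from 27950966 to 28177446 on the minus strand. It was listed at 0 in all 3 controls and in TAX replicate 2, at 0.007475 FPKM in TAX replicate 1 and at 0.00514 FPKM in TAX replicate 3. No fold change is given for values at this level. CDH3, or P-cadherin of basal epithelia, was 36.7 ± 5.75 FPKM in the controls and 29.7 ± 1.67 FPKM under TAX (SD, n = 3 each). The CDH3 groups overlapped, and its log2 fold change was -0.29 (95% interval -0.53 to -0.040, adjusted p = 0.429 from limma, unadjusted p = 0.0267). CDH11 and CDH6, cadherins of mesenchymal and of renal cells, were listed at 0 in all libraries. Of these 5 cadherin genes CDH1 and CDH3 were above 1 FPKM. CDH3, CDH11, CDH6 and ESRP2 are named after their values were seen.

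ZEB1, a zinc finger and homeobox repressor of CDH1, lies on chromosome 10 from 31318495 to 31529814 on the plus strand. Its FPKM was 4.735, 4.12 and 3.65 in the controls and 3.80, 4.45 and 4.81 with TAX, and the groups overlapped over most of their range. The log2 fold change was 0.053 (standard error 0.10, 95% interval -0.18 to 0.28, adjusted p = 0.876 from limma), close to the median of all genes. It was 0.027 after quantile normalization and 0.031 after rescaling to the same summed FPKM, but -0.0047 when each library was centred on its median. It was also -0.020 without control replicate 3 and -0.0082 without TAX replicate 3, and 0.13 without control replicate 1 or TAX replicate 1. The controls and the TAX libraries were thus not distinguished by ZEB1 at this precision, and the interval ran from a 0.884-fold to a 1.22-fold level.

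E-boxes were searched in the RefSeq promoter windows of the members, which reach from 250 bases before to 50 bases after a start (GRCh38.p14). The motif searched was CAGGTG, the E-box that ZEB and SNAI proteins bind, on both strands (CACCTG is its reverse complement). Windows were at hand for 5 members, ZEB1, ZEB2, VIM, FN1 and CDH2, with 12 windows in all. Those of CDH1, EPCAM, ESRP1, SNAI1 and SNAI2 were not analysed here. Of all 35116 windows 20.6% held a match. Among the members, 2 of the 7 ZEB1 windows held 4 matches, and the letters were not found in the windows of the other 4 genes. The 3 matches before a ZEB1 start are shown with the motif in capitals, on the plus strand of chromosome 10.
ZEB1, chr10:31318348-31318377: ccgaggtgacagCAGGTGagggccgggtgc
ZEB1, chr10:31318966-31318991: ccccaccaCACCTGaggaaaactttt
ZEB1, chr10:31319119-31319148: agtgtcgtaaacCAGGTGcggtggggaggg
A match does not show binding, and these libraries do not measure it.

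ZEB2, its paralog, lies on chromosome 2 from 144364364 to 144524583 on the minus strand. It was much less abundant than ZEB1, with 0.383, 0.232 and 0.472 FPKM in the controls and 0.631, 0.559 and 0.621 FPKM with TAX. The groups did not overlap, and the TAX mean was 1.67 times the control mean. An exact permutation test gave a two-sided p of 0.1, the smallest possible here. With a lower filter of 0.3 FPKM, under which ZEB2 was tested, its log2 fold change was 0.24 with an adjusted p of 0.362 (limma). In the annotation 6 genes overlap ZEB2, 5 of them on the other strand. Opposite VIM and ZEB1 lie 2 genes each, and opposite CDH1, EPCAM and CDH2 lies 1 gene each. Whether reads were counted by strand is not given in the sources used here. The ratio of ZEB1 to ZEB2 was 12.4, 17.7 and 7.73 in the controls and 6.03, 7.97 and 7.76 with TAX, and the groups overlapped.

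SNAI1, or Snail, lies on chromosome 20 from 49982999 to 49988886 on the plus strand, and SNAI2, or Slug, on chromosome 8 from 48917604 to 48921740 on the minus strand. Both are zinc finger repressors of CDH1. The FPKM of SNAI1 was 2.18, 1.52 and 1.30 in the controls and 1.08, 1.54 and 1.64 with TAX, with wide overlap. Its log2 fold change was -0.14 (standard error 0.13, 95% interval -0.43 to 0.16, adjusted p = 0.741 from limma). It was -0.00087 without control replicate 1, -0.031 without TAX replicate 1 and -0.24 without control replicate 3. SNAI2 was 1.07, 1.78 and 0.978 FPKM in the controls and 2.2001, 1.46 and 1.79 FPKM with TAX. Control replicate 2 lay among the TAX libraries, and the other controls lay below them. The log2 fold change of SNAI2 was 0.32 (standard error 0.14, 95% interval 0.0082 to 0.62, adjusted p = 0.485 from limma, unadjusted p = 0.0452), and an exact permutation test gave a two-sided p of 0.2. With a pseudocount of 0.1 the value was 0.51 (adjusted p = 0.486 from limma). Both SNAI genes lay between 0.978 and 2.2001 FPKM and had a wide spread between replicates, with coefficients of variation of 27.7% and 34.6% in the controls.

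Ratios between 2 members within a library do not change when all values of that library are multiplied by the same factor. They were taken from the FPKM values as given, and not after quantile normalization or median centring. VIM was 8.72, 6.73 and 9.17 times as abundant as CDH1 in the controls and 9.92, 12.6 and 10.4 times with TAX. Every TAX library thus had more vimentin mRNA per E-cadherin mRNA than every control library, with means of 8.21 ± 1.30 and 10.97 ± 1.40 (SD, n = 3 each). VIM to EPCAM was 7.60, 7.78 and 6.78 in the controls and 7.80, 8.12 and 8.04 with TAX, also without overlap but by a narrow margin. EPCAM to CDH1 was 1.15, 0.865 and 1.35 in the controls and 1.27, 1.55 and 1.30 with TAX, and the groups overlapped. The ratio of VIM to the mesenchymal gene FN1, given above, was also higher with TAX without overlap. The pairs were chosen after the values of the genes were seen, so no test is given.

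**Figure D4:**
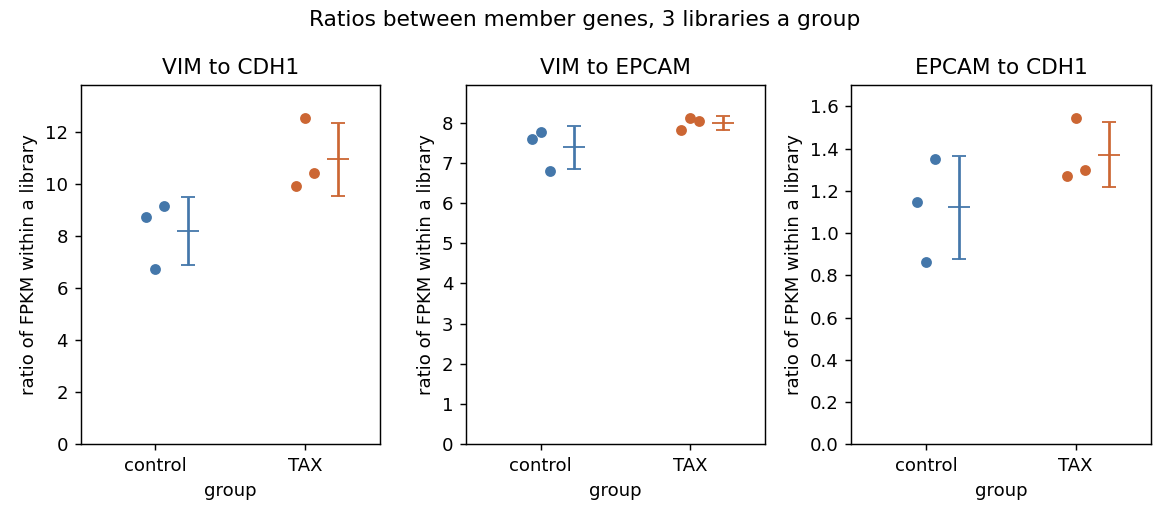
Ratio of the FPKM of 2 member genes within each library, with 1 point per library and the mean ± SD of the 3 libraries of a group beside the points; each axis starts at 0. VIM to CDH1 lies between 6.73 and 9.17 in control and between 9.92 and 12.6 in TAX-treated cells, VIM to EPCAM is separated by a narrow margin, and EPCAM to CDH1 overlaps.

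The members were set beside 148 further genes of the epithelial-mesenchymal program, grouped in 8 lists by role. Of these, 146 were in the tables and 104 passed the filter. At an adjusted p under 0.05 (limma) 1 of the 104 was higher after TAX treatment and 0 were lower, beside 0.316% and 0.162% of all tested genes. By unadjusted p under 0.05, 10 were higher and 8 lower, beside 7.73% and 2.41% of all tested genes. Their median log2 fold change was 0.040, beside 0.054 over all tested genes. MIR200CHG and MIR205HG, the host genes of miR-200c and miR-205, were not found by name among the identifiers of the deposited tables.

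The gene that passed was NT5E, which encodes the surface enzyme CD73 that mesenchymal stromal cells carry. NT5E rose from 76.5, 68.2 and 66.7 FPKM in the controls to 99.7, 99.3 and 103 FPKM with TAX, without overlap. Its log2 fold change was 0.51 (standard error 0.084, 95% interval 0.32 to 0.70, adjusted p = 0.0301 from limma). NT5E passed under 7 of 14 alternative settings. It did not pass when control replicate 2 or 3 or any TAX replicate was left out, with adjusted p from 0.0556 to 0.147 (limma). It also did not pass with no filter (adjusted p = 0.121 from limma) or under the replicate block (adjusted p = 0.0713 from limma).

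Among 21 tested mesenchymal and matrix genes the median log2 fold change was 0.040, with 13 genes positive and 8 negative. The sign of this median turned to -0.018 with each library centred on its median and to -0.054 without control replicate 3. The most abundant were LGALS1, the lectin galectin-1, with 316 ± 10.9 FPKM in the controls and 394 ± 19.8 FPKM under TAX, and AXL, a receptor tyrosine kinase, with 127 ± 6.68 and 147 ± 4.38 FPKM (SD, n = 3 each). The TAX values of both lay above the controls, while their adjusted p was 0.234 and 0.437 (limma). By unadjusted p 4 genes of this list were higher (NT5E, LGALS1, AXL and the matrix gene TNC) and 3 were lower (COL1A1, TGFBI and CALD1), of 21 tested, beside 7.73% and 2.41% of all tested genes. TNC, COL1A1, TGFBI and CALD1 are named here after their values were seen. COL1A1 was 2.00 ± 0.0947 FPKM in the controls and 1.44 ± 0.0285 FPKM under TAX (SD, n = 3 each), with an adjusted p of 0.197 (limma). Of its 38 genes 17 lay below the filter, with SPARC, COL1A2, POSTN, MMP2 and FAP, genes of stromal fibroblasts, listed at 0 in all libraries.

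Of the epithelial junction genes 29 of 31 were tested, 15 with a positive and 14 with a negative value and a median log2 fold change of 0.0084, which was -0.049 with median centring. The catenins that tie E-cadherin to actin were abundant, with 113 ± 14.2 and 124 ± 5.22 FPKM for CTNNA1 and 98.6 ± 13.7 and 111 ± 0.698 FPKM for CTNNB1 without and with TAX (SD, n = 3 each).

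Of 26 epithelial regulators and surface genes 14 were tested, with a median of -0.030, which was 0.018 without control replicate 2. ELF3, an epithelial ETS factor, had the smallest p, with 27.9, 36.8 and 21.9 FPKM in the controls and 19.1, 17.3 and 19.9 FPKM with TAX. Its groups did not overlap (log2 fold change -0.57, standard error 0.15, adjusted p = 0.214 from limma). The surface gene SPINT2 was the most abundant, at 165 ± 15.6 FPKM in the controls and 175 ± 6.07 FPKM under TAX (SD, n = 3 each). GRHL2, a factor that maintains CDH1 in many epithelia, was listed at 0 in all libraries. An exact 0 can also be a failed estimate, and 3130 identifiers are assembled loci without a gene name, so a 0 does not show that the gene is silent. The genes of the lists given at or near 0, and TWIST2, are also named after their values were seen.

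Of 15 other EMT transcription factors 7 were tested, with a median of 0.093, which was 0.16 without control replicate 1 and 0.026 without control replicate 3. TWIST1 and TCF4 were listed at 0 in all libraries and FOXC2 and PRRX1 were at or below 0.0317 FPKM, while TWIST2 was 4.47 ± 1.04 FPKM in the controls and 4.92 ± 0.688 FPKM under TAX (SD, n = 3 each). ETS1, a factor of motile and endothelial cells, had the smallest p, with 26.6, 28.7 and 23.7 FPKM in the controls and 39.7, 33.7 and 39.7 FPKM with TAX. Its groups did not overlap (log2 fold change 0.50, standard error 0.099, adjusted p = 0.0731 from limma). With limma the adjusted p was 0.0438 when each library was centred on its median. ETS1 passed under only this 1 of 14 alternative settings. TCF3, which encodes the E2A factors, was the most abundant of the list at 37.0 ± 3.06 and 39.4 ± 1.47 FPKM (SD, n = 3 each).

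The 15 tested corepressors and turnover genes of SNAI and ZEB factors had a median of 0.071, and 0 passed at an adjusted p under 0.05 (limma). CTBP1, the corepressor that ZEB proteins recruit, was 59.0 ± 3.89 and 64.2 ± 0.819 FPKM, and HDAC1, a histone deacetylase recruited by Snail, was 42.1 ± 1.87 and 41.9 ± 2.94 FPKM without and with TAX (SD, n = 3 each). FBXL14, a ubiquitin ligase for Snail, had the smallest p (2.96 ± 0.599 and 3.80 ± 0.0385 FPKM, adjusted p = 0.406 from limma). The 7 splicing regulators had a median of 0.091, with PTBP1 and SRSF1 the most abundant at 122 ± 13.5 and 84.0 ± 0.759 FPKM in the controls and 132 ± 3.32 and 92.7 ± 3.48 FPKM under TAX (SD, n = 3 each). The 11 tested fibronectin receptors and partners had a median of 0.040, which was -0.018 with median centring. ITGB1, the beta subunit of the fibronectin receptor, was 601 ± 58.4 and 585 ± 13.4 FPKM, the crosslinking enzyme TGM2 was 174 ± 23.7 and 178 ± 1.59 FPKM, and the adhesion adaptor PXN was 71.7 ± 7.41 and 87.3 ± 1.92 FPKM (SD, n = 3 each). PXN had the smallest p of its list, with an adjusted p of 0.335 (limma).

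**Figure D5:**
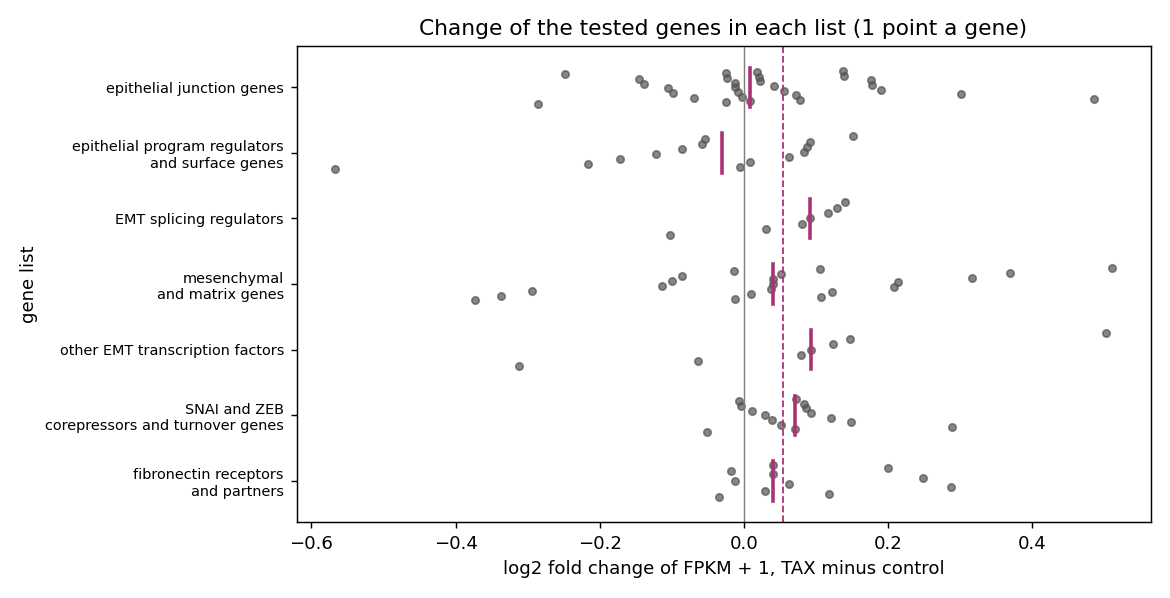
Log2 fold change of FPKM + 1, TAX minus control, of the 104 tested genes in 7 lists of the epithelial-mesenchymal program, with 1 point per gene and a bar at the median of each list. The medians lie between -0.030 and 0.093, near the dashed median of all tested genes at 0.054, and NT5E, at 0.51 in the mesenchymal and matrix list, is the gene with an adjusted p under 0.05.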

How the data were processed

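RNA of DU145 cells (3 control and 3 TAX libraries) was sequenced after Trizol extraction and mRNA library preparation. The authors deposited 1 table per library with 1 FPKM value per gene. The submitters' processing notes name HISAT2 2.2.0, StringTie 2.1.2 and GRCh38, without roles. The unit was read from the values and the StringTie identifiers, and annotation, filters and strand setting are not given in the sources used here. Without counts the depth is unknown, and no counting intervals are given.

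From the FPKM values, log2(FPKM + 1) was fitted with limma 3.58.1 in R 4.3.3 (eBayes with trend, no covariate) over genes that reached 1 FPKM in 3 or more of 6 libraries, with Benjamini-Hochberg adjustment and 95% intervals. Exact two-sided permutation tests used all splits of 3 against 3. In a simulation of this comparison over 12359 genes, 200 genes were given a log2 change of 0.585, of which 68.5% were found, with 2 false calls. With a log2 change of 1 the values were 95.5% and 5. Recovery of smaller log2 changes, such as those of the 8 tested members (-0.16 to 0.32), was not tested. Control replicate 3 was the lowest library for 58.0% of all tested genes. How a library that is low in so many genes affects the false calls was not tested.

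The members and gene lists were chosen with earlier results of these data known. In each list the genes with an adjusted p under 0.05, the 2 with the highest mean FPKM and the one with the smallest p were named, beside all members and markers. For CDH1 and VIM the 3 genes with the most similar pattern were named. A few genes that these rules name are not reported here. Positions come from GENCODE 29 (GRCh38), the build of the processing notes. Alternatives were 14: another pseudocount, filter or scaling, no trend, a replicate block and each library left out.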

Additional observations from a re-analysis of the deposited data

How the results depend on the processing

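Under the 14 alternatives 0 members passed an adjusted p of 0.05 (limma) in any. Over all tested genes, 39 were higher and 20 lower. These counts were 0 and 1 with no filter, 13 and 13 with the replicate block, 47 and 48 with quantile normalization, and 46 and 50 with each library centred on its median. With 1 library left out, 9 to 28 genes were higher and 8 to 15 lower. Among the genes of the lists the count of 1 became 0 with no filter and with the replicate block, 2 with quantile normalization, 3 with median centring, 3 with rescaling to the same summed FPKM, and 0 to 1 with a library left out. The log2 fold change of ZEB1 turned to -0.0047 with median centring and ran from -0.020 to 0.13 with a library left out, and that of CDH1 from -0.35 to 0.0028. The cause was not tested. The log2 difference of ZEB2 was 0.64 with a pseudocount of 0.1 in place of 0.24. Same-numbered control and TAX libraries deviated from their group means with correlations of -0.12, -0.33 and -0.17, and 0 control libraries correlated best with their own number. These values gave no sign of pairing by replicate number. With 3 libraries a group they cannot show that the libraries were not paired. Depth is unknown, which limits what can be said of ZEB2, CDH2, SNAI1 and SNAI2, the members near or below 1 FPKM.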

Other observations

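The genes whose log2(FPKM + 1) followed that of CDH1 most closely over the 6 libraries were ENG, FOSL2 and MAP3K15, with Pearson's r of 0.994, 0.993 and 0.993. For VIM they were RPS6KB2, CIAPIN1 and ADCY3, with r of 0.999, 0.998 and 0.996. These values are descriptions over 6 libraries that share their scaling, and an r above 0.9 was reached by 373 of the tested genes for CDH1 and by 1147 for VIM. The FPKM of FOSL2, a subunit of the AP-1 factor, ran from 43.5 to 67.9, close to the range of CDH1, while ENG was between 1.15 and 1.72 FPKM. ENO2, listed among neuroendocrine markers, lay between 35.4 and 55.6 FPKM, whereas CHGA and SYP, the other markers of that list, were at or below 0.0948 and 0.518 FPKM.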
